A study of Mus musculus with 24 samples.

Results

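The transcripts of 4 growth factors of the transforming growth factor beta (TGF-beta) family, Gdf9, Bmp15, Bmp5 and Bmp6, were followed across mouse oocytes. They were taken by gene symbol from a count table of 55401 genes, and all 4 were among the 16746 genes that passed the filter on low counts. RNA was sequenced from 12 libraries in 6 groups of 2, each library made from 5 pooled cells (called oocytes in the labels and embryos in the design text). Control oocytes are called con, and in vivo PSMPs are oocytes whose exposure to polystyrene microplastics took place in the living female. For exposure of oocytes in the dish (in vitro PSMPs) the labels give a control of its own, con-in vitro. Further groups were oocytes treated with SAHA (vorinostat, an inhibitor of histone deacetylases) and exposed oocytes overexpressing Hdac3, the gene of a histone deacetylase (PSMPs & OE-Hdac3). The strain, the age of the females, the stage of the oocytes, the doses, the control of SAHA and how the overexpressing oocytes met the particles are not given in the sources used here. SAHA was therefore compared with both controls, and PSMPs & OE-Hdac3 with both exposed groups.

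Growth factors of this family are made as precursors that proprotein convertases such as furin cut to release the mature dimer. The dimer binds type I and type II serine/threonine kinase receptors, which phosphorylate Smad proteins. Smad2 and Smad3 carry signals of the TGF-beta, activin and GDF9 kind, and Smad1, Smad5 and Smad9 carry those of the BMP kind. In the ovary GDF9 and BMP15 are secreted by the oocyte and act on the granulosa and cumulus cells around it. Gdf9 is needed for follicles to grow beyond the primary stage, and Bmp15 lies on the X chromosome and cooperates with Gdf9. BMP6 is made by oocytes as well, and BMP5 is its close relative in the same branch of the family.

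Levels are given as CPM, the count relative to the library's size after scaling by TMM factors (edgeR's correction for composition), with mean ± SD, and levels between genes are compared only per kilobase of exon. Differences are log2 fold changes ± standard error from edgeR's quasi-likelihood F test, with Benjamini-Hochberg adjusted p-values over the 16746 genes and 0.05 as threshold.

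Depth ran from 6219784 to 35637689 counts per library. Both columns of in vivo PSMPs agree within sampling noise (a chi-square of 0.444 per degree of freedom, where the other groups had 16.5 to 384), so they were averaged and counted as 1 sample (n = 1). All other groups had n = 2. Nothing in the labels ties the libraries of a group to different females, so a p-value here weighs only library-to-library spread, which may be technical. The con-in vitro libraries stood apart: their top 100 genes held 52.2% and 53.3% of the counts (19 to 36.1% elsewhere), and their TMM factors were 0.542 and 0.572. They held 11832 and 11640 detected genes, against 12316 and 12843 in con, 17559 for in vivo PSMPs, while the remaining libraries held 20284 to 20957. The part of these signs in the comparisons with con-in vitro was not tested. Hdac3 stood at 228 and 336 CPM in the overexpressing libraries and between 7.17 and 37.4 CPM in the other 9. All 12 oocyte markers looked at were detected in every library, with summed levels from 6585 CPM in con-in vitro to 37658 CPM in SAHA. Of 16 cumulus and granulosa cell markers, 5 were detected in each con and con-in vitro library, 14 in the in vivo PSMPs sample and 10 to 14 in the rest. Their sums lay between 35.8 and 167 CPM, the highest in in vivo PSMPs. Amh, Foxl2 and Fshr were at 0 in con and con-in vitro and at most at 2.49 CPM elsewhere. Inha, another of the 16, stood at 59.4 CPM in in vivo PSMPs and at most at 1.53 CPM in any other library. In in vivo PSMPs against con 13 of the 16 could be tested, and 2 rose and 0 fell (4.88% of all genes passed). Of 7 theca, stroma and blood markers 1 to 6 were detected, and the endothelial marker Pecam1 made up most of their sums of 0.273 to 97.2 CPM. The part of these markers in the results below was not tested. Counts are shares of a library, so fewer transcripts per oocyte and more of other transcripts cannot be told apart.

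Gdf9 (ENSMUSG00000018238.6) lies on mm10 chromosome 11, 53431023 to 53437904, plus strand. Bmp15 (ENSMUSG00000023279.7) lies on chromosome X, 6314107 to 6320721, minus strand. Bmp5 (ENSMUSG00000032179.7) spans chromosome 9, 75775364 to 75900310, and Bmp6 (ENSMUSG00000039004.6) spans chromosome 13, 38345107 to 38500302, both on the plus strand. Counts cover the exons of each gene, which add up to 2031 bases for Gdf9, 3060 for Bmp15, 4025 for Bmp5 and 3900 for Bmp6. The last 224 exonic bases of Bmp6 overlap Txndc5 on the other strand, and 1878 exonic bases of Bmp5 overlap the gene model Gm26903, which held at most 3 counts in any library. Whether counting used the strand is not given in the sources used here, so reads from these shared bases cannot be assigned. Gdf9 lies 191 bases from Uqcrq, on the other strand, with no shared exon in the count table.

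Both Bmp15 and Bmp5 rose in SAHA against con and were lower in PSMPs & OE-Hdac3 against in vitro PSMPs (values below). Against con-in vitro Bmp5 rose in in vitro PSMPs and in SAHA, and Bmp15 passed in neither. The bases upstream of their starts are shown. RefSeq's table for GRCm38.p6 held 3 of the 4 genes and not Gdf9. The sequences are the 250 bases before the annotated start, chrX:6320725-6320974 on the minus strand for Bmp15 and chr9:75775115-75775364 on the plus strand for Bmp5, written 5′ to 3′ with CpG pairs (CG) in capitals.
Bmp15: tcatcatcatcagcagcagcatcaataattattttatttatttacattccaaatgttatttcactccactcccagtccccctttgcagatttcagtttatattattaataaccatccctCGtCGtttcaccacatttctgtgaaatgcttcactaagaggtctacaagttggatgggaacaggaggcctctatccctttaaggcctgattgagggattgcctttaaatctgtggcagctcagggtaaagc
Bmp5: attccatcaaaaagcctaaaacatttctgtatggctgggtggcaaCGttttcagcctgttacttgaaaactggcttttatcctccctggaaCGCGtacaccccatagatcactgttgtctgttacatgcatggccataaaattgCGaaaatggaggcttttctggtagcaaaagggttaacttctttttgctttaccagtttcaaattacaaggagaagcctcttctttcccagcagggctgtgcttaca
The Bmp15 stretch held 2 CpG pairs and the Bmp5 stretch 4, against a median of 6 over 32841 promoters of the same length. Of all promoters 81.2% held at least 2 and 62.2% at least 4. The window of Bmp6, which moved the other way, lies at chr13:38345466-38345715, inside the span that the count table gives the gene and not before it, since RefSeq places the start further in. It held 22, a number reached by 14.8% of all promoters. G and C made up 40.4% of the Bmp15 window, 42.8% of the Bmp5 window and 68.8% of the Bmp6 window (median of all 52.4%). Searched on both strands, the homeodomain core TAATTA occurred once in Bmp15 and in neither of the other two, against 4.84% of all promoters with a match. The form TAATTG (7.17% of all promoters) occurred in none of the 3. Searched in the same way, the TATA box TATAAA had 1 match in Bmp15 and 0 in Bmp5 and Bmp6 (12.4% of all promoters with a match). The E-box CANNTG, N being any base, had 1 match in Bmp15, 2 in Bmp6 and 0 in Bmp5 (66.2%). These values describe the letters of the windows only, and no link between them and the transcript levels was tested.

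Gdf9 was the transcript with the most counts in 5 of the 11 libraries, those of con, in vivo PSMPs and PSMPs & OE-Hdac3. Con held 15248 and 13141 CPM of it, the in vivo PSMPs sample 8289 CPM, and the PSMPs & OE-Hdac3 libraries 6089 and 8256 CPM. In vitro PSMPs held 5331 and 7092 CPM, SAHA 4460.3 and 4831 CPM, and con-in vitro 1319 and 2174 CPM. Con was thus the highest group and con-in vitro the lowest, an 8.13-fold range of group means, and neither overlapped its neighbour in that order. In vitro PSMPs and PSMPs & OE-Hdac3 overlapped each other. On library totals the range was 14.6-fold between the same groups, and PSMPs & OE-Hdac3 (mean 11228) stood above in vivo PSMPs (10549). In con-in vitro, its rank by counts was 201 and 123.

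Bmp15 followed another order. It was highest with SAHA, at 6104 and 6889.8 CPM. In vitro PSMPs followed at 4401 and 6450.5 CPM and con-in vitro at 3921 and 3207 CPM. Con held 1845 and 2146 CPM, in vivo PSMPs 1919.7 CPM, and PSMPs & OE-Hdac3 932 and 1178 CPM. The range of group means was 6.16-fold, SAHA overlapped in vitro PSMPs, and in vivo PSMPs lay within con. PSMPs & OE-Hdac3 lay below every other library on this scale. On library totals the range was 3.58-fold, and PSMPs & OE-Hdac3 (1460.1 and 1842) overlapped con (1727 and 2338) and con-in vitro (2125 and 1834).

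Bmp5 separated the groups most widely, with a 107-fold range of group means. SAHA held 318 and 347 CPM and in vitro PSMPs 182 and 284 CPM. The other libraries lay far below, with con at 22.5 and 13.6 CPM, in vivo PSMPs at 9.59 CPM and PSMPs & OE-Hdac3 at 5.27 and 6.55 CPM. Con-in vitro was lowest at 5.64 and 0.546 CPM, which rest on 19 and 2 counts, and it overlapped PSMPs & OE-Hdac3. On library totals the range was 179.8-fold, with no such overlap.

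Bmp6 was its mirror image in 2 groups. It stood at 13.5 and 9.94 CPM in in vitro PSMPs and at 7.25 and 11.1 CPM in SAHA, and these groups overlapped. All other libraries lay between 114 and 231 CPM. Within that upper set con (114 and 231 CPM) spanned in vivo PSMPs (186 CPM), con-in vitro (187 and 219.8 CPM) and PSMPs & OE-Hdac3 (152 and 156 CPM). Txndc5, which overlaps the end of Bmp6, had its lowest levels in the same groups, at 57.9 and 106 CPM in SAHA and 169.6 and 134 CPM in in vitro PSMPs, against 231 to 655 CPM elsewhere, though on library totals con-in vitro (125 and 189.9) overlapped in vitro PSMPs (208 and 132). Its part in the Bmp6 counts was not tested.

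**Figure D1:**
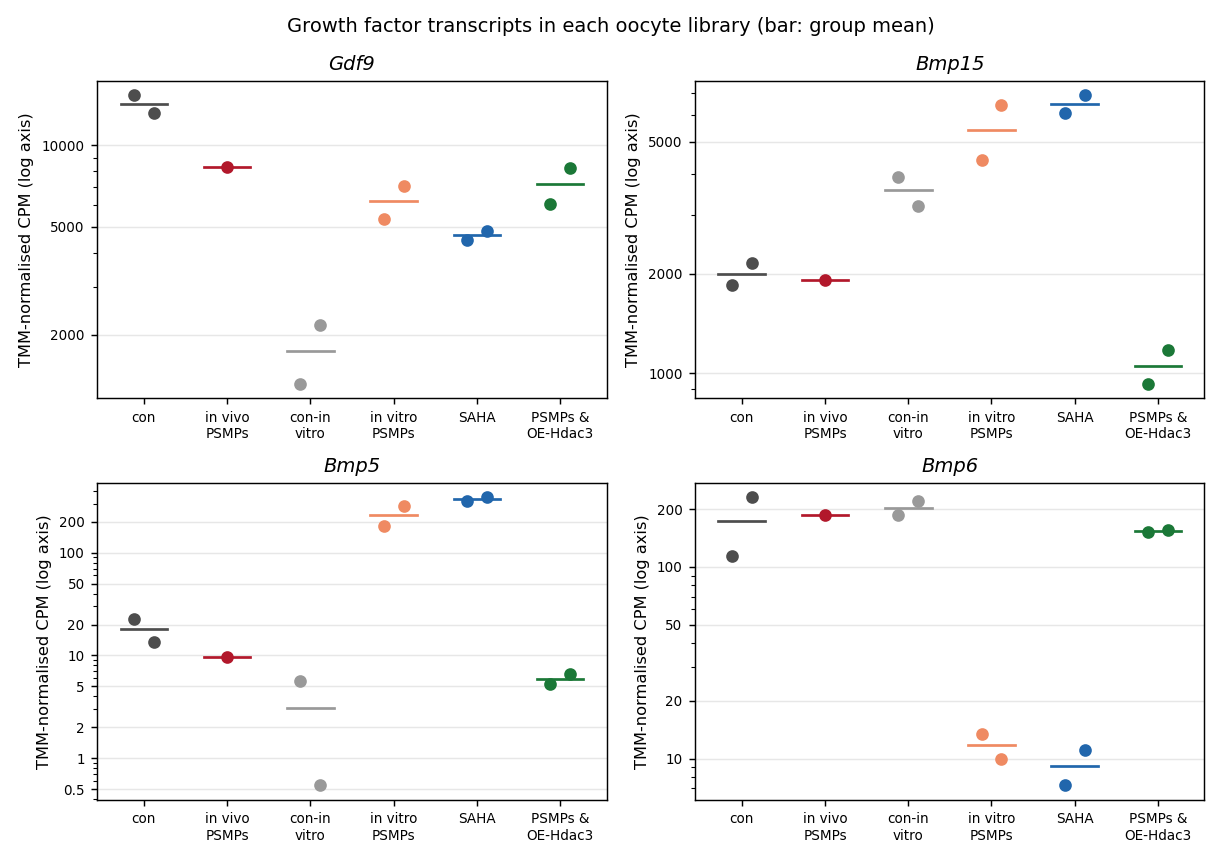
Levels of the 4 growth factor transcripts in TMM-normalised CPM on log axes, with 1 point per library and a bar at the group mean, for the 6 groups on the horizontal axis. Bmp5 is high and Bmp6 low in in vitro PSMPs and SAHA, Gdf9 is lowest in con-in vitro, and Bmp15 is lowest in PSMPs & OE-Hdac3.

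Ratios inside a library do not depend on scaling. Per kilobase of exon, Gdf9 was 12.5 and 9.22 times as abundant as Bmp15 in con, 6.51 times in in vivo PSMPs, and 9.85 and 10.6 times in PSMPs & OE-Hdac3. The ratio was 1.82 and 1.66 in in vitro PSMPs, 1.10 and 1.06 in SAHA, and 0.507 and 1.02 in con-in vitro. Gdf9 thus exceeded Bmp15 in 10 of the 11 libraries. Con, in vivo PSMPs and PSMPs & OE-Hdac3 lay between 6.51 and 12.5, and the other groups reached at most 1.82. The ratio of Bmp5 to Bmp6 per kilobase was 13.1 and 27.7 in in vitro PSMPs and 42.4 and 30.3 in SAHA. It lay between 0.00241 and 0.191 in the other 7 libraries. The lengths used include the bases shared with Gm26903 (1878 of Bmp5) and with Txndc5 (224 of Bmp6), whose reads cannot be assigned. No test of these ratios was made.

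**Figure D2:**
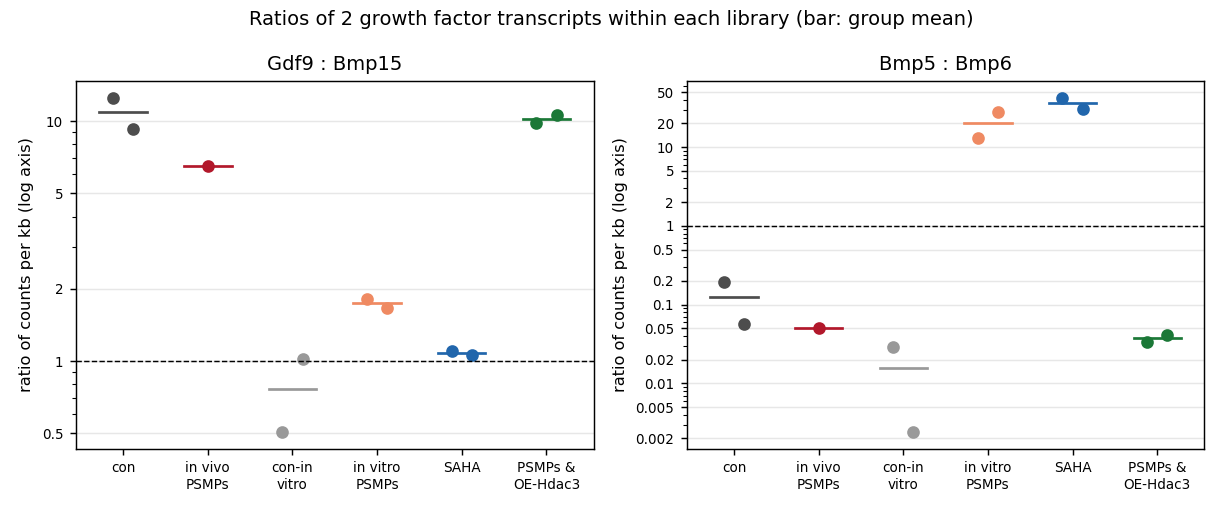
Ratio of Gdf9 to Bmp15 and of Bmp5 to Bmp6, as counts per kilobase of exon on log axes, with 1 point per library, a bar at the group mean and a dashed line at equality. Con, in vivo PSMPs and PSMPs & OE-Hdac3 lie between 6.51 and 12.5 for Gdf9 to Bmp15, and only in vitro PSMPs and SAHA lie above 1 for Bmp5 to Bmp6.

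Exposure in the animal was first compared with con. None of the 4 genes passed the test, while 4.88% of all genes did. Gdf9 was at 8289 CPM against 14195 ± 1489.7 CPM in con (log2 -0.78 ± 0.41, 95% interval -1.71 to 0.16, adjusted p = 0.28), below both con libraries. Bmp5 was below both as well, at 9.59 against 18.0 ± 6.29 CPM (log2 -0.91 ± 0.85, adjusted p = 0.56). Bmp15 had log2 -0.06 ± 0.37 (interval -0.88 to 0.77) and Bmp6 log2 0.11 ± 0.51 (interval -1.04 to 1.25). Nothing closer can be said with 1 exposed sample.

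Exposure in culture was compared with con-in vitro, and here 3 of the 4 genes passed, against 15.3% of all genes. This control is the one whose libraries stood apart in the share of the top genes. Bmp5 rose from 3.09 ± 3.60 to 233 ± 71.9 CPM (log2 6.25 ± 0.86, adjusted p = 0.0018). Bmp6 fell from 204 ± 23.1 to 11.7 ± 2.49 CPM (log2 -4.12 ± 0.48, adjusted p = 0.00071). Gdf9, at 1746 ± 605 CPM in the control, rose to 6211 ± 1245 CPM (log2 1.83 ± 0.34, adjusted p = 0.0074), and Bmp15, at 5426 ± 1449 against 3564 ± 505 CPM, did not pass (log2 0.61 ± 0.30, adjusted p = 0.19). Without con-in vitro replicate 1 the Bmp5 value was log2 8.73, and without replicate 2, which holds 2 counts of it, log2 5.37. The Bmp15 difference passed when counts were scaled by library totals alone (log2 1.57, adjusted p = 0.0027). Against con, which is not the labelled control, the exposed Gdf9 libraries lay below both con libraries, and the Bmp5 and Bmp6 libraries lay on the same side as against con-in vitro.

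SAHA was compared with both controls. Against con-in vitro Bmp5 rose to 332 ± 20.9 CPM (log2 6.76 ± 0.88, adjusted p = 0.0011), Bmp6 fell to 9.17 ± 2.72 CPM (log2 -4.47 ± 0.48, adjusted p = 0.00045) and Gdf9 rose to 4646 ± 262 CPM (log2 1.41 ± 0.33, adjusted p = 0.019). Bmp15, at 6497 ± 555 CPM, had log2 0.87 ± 0.30 (adjusted p = 0.071). These were 3 of 4 genes, against 19.8% of all. The Gdf9 call did not hold without con-in vitro replicate 1 (its adjusted p was 0.07) nor without SAHA replicate 1 or 2 (adjusted p = 0.082 and 0.11). The Bmp5 value was log2 9.24 without con-in vitro replicate 1 and 5.89 without replicate 2. Bmp15 passed with DESeq2 (adjusted p = 0.036) and with library totals (log2 1.58, adjusted p = 0.0025).

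Against con all 4 genes passed, where 26.9% of all genes did. Gdf9 fell (log2 -1.61 ± 0.33, adjusted p = 0.013), so its direction depended on the control. Bmp15 rose (log2 1.70 ± 0.31, adjusted p = 0.0094), as did Bmp5 (log2 4.20 ± 0.75, adjusted p = 0.0096). Bmp6 fell (log2 -4.23 ± 0.48, adjusted p = 0.0024). Without SAHA replicate 1 or 2 the calls of Gdf9 (adjusted p = 0.082 and 0.072), Bmp15 (0.056 and 0.066) and Bmp5 (0.063 and 0.064) were lost, and that of Bmp6 was not. The 2 SAHA comparisons share the SAHA libraries, and those of SAHA and of in vitro PSMPs share con-in vitro.

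Overexpression of Hdac3 with exposure was compared with exposure in culture, and 3 of the 4 genes passed, against 4.83% of all genes. Bmp5 was lower, at 5.91 ± 0.903 against 233 ± 71.9 CPM (log2 -5.30 ± 0.80, adjusted p = 0.013). Bmp15 was lower, at 1055 ± 174 against 5426 ± 1449 CPM (log2 -2.36 ± 0.31, adjusted p = 0.011). Bmp6 was higher, at 154 ± 3.23 against 11.7 ± 2.49 CPM (log2 3.72 ± 0.47, adjusted p = 0.011). Gdf9 did not pass (log2 0.21 ± 0.33, interval -0.53 to 0.94). All 3 calls were lost without in vitro PSMPs replicate 2 and without either PSMPs & OE-Hdac3 library. Almost none of all genes tested passed in those fits, so the loss was not particular to these 3. Leaving out each library in turn gave log2 -5.59 to -4.95 for Bmp5, -2.64 to -2.06 for Bmp15 and 3.51 to 3.95 for Bmp6.

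Against in vivo PSMPs no gene of the 4 passed, and 0% of all genes did by edgeR (2415 at an unadjusted p under 0.05, and 870 adjusted with DESeq2). Bmp15 lay below the exposed sample in both libraries (log2 -0.86 ± 0.36, interval -1.66 to -0.06, adjusted p = 0.31). It passed when only these groups were fitted (log2 -0.97). That fit takes its spread from the PSMPs & OE-Hdac3 libraries alone, since in vivo PSMPs is a single sample. Gdf9 had log2 -0.21 ± 0.40 (interval -1.10 to 0.69), Bmp5 log2 -0.70 ± 0.80 (interval -2.51 to 1.11) and Bmp6 log2 -0.27 ± 0.51 (interval -1.41 to 0.87).

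The controls differed from each other in 2 of the 4 genes, against 25.1% of all genes. Gdf9 was lower in con-in vitro (log2 -3.02 ± 0.35, adjusted p = 0.00063), and so was Bmp5 (log2 -2.56 ± 0.76, adjusted p = 0.038). Bmp15, with log2 0.84 ± 0.30 (adjusted p = 0.071), passed with DESeq2 (adjusted p = 0.021) and stood at log2 -0.04 with library totals. Bmp6 had log2 0.24 ± 0.42 (interval -0.71 to 1.18). The Bmp5 call was lost without con replicate 1 (adjusted p = 0.055), without con-in vitro replicate 2 (log2 -1.69, adjusted p = 0.063) and with only the controls fitted (adjusted p = 0.43). Without con-in vitro replicate 1 its log2 was -5.04.

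**Figure D3:**
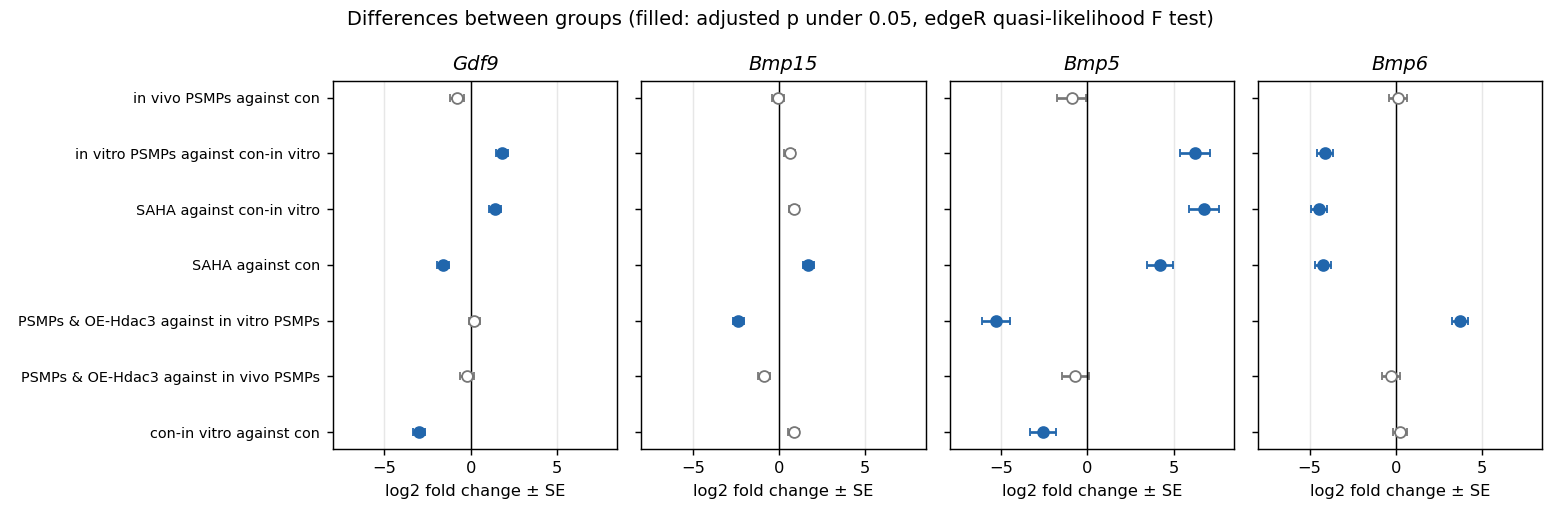
Log2 fold change with its standard error for each growth factor (panels) in the 7 comparisons (rows), first-named group over second. Filled points passed adjusted p 0.05 in edgeR's test; Bmp5 and Bmp6 lie on opposite sides of 0 in each comparison in which both passed.

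The other genes of the pathway came from lists chosen with earlier results of these data known. Among 4 proprotein convertase genes, Furin differed most. Con-in vitro held 7036 and 8506 CPM of it, and con 231 and 192 CPM. The in vivo PSMPs sample held 84.7 CPM, in vitro PSMPs 37.4 and 60.9 CPM, SAHA 75.2 and 80.1 CPM, and PSMPs & OE-Hdac3 292 and 218 CPM. Con-in vitro was thus apart from every other library. Furin was lower in in vitro PSMPs (log2 -7.30 ± 0.43, adjusted p = 5.9e-05) and in SAHA (log2 -6.64 ± 0.41, adjusted p = 6e-05) than in con-in vitro. SAHA was also below con (log2 -1.44 ± 0.33, adjusted p = 0.016), and PSMPs & OE-Hdac3 was above in vitro PSMPs (log2 2.37 ± 0.34, adjusted p = 0.011). Pcsk5, Pcsk6 and Pcsk7 passed in none of the 7 comparisons.

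Of 17 receptor and co-receptor genes 11 could be tested. In in vitro PSMPs against con-in vitro 0 rose, 3 fell and 8 did not pass (median log2 -1.25, against 0.71 over all genes, of which 15.3% passed). In SAHA against con-in vitro the counts were the same (median -1.08 against 0.66, with 19.8% of all genes passing). In con-in vitro against con 4 rose and 0 fell (25.1% of all genes passed). Amhr2, at 0 in con-in vitro, in vitro PSMPs and SAHA, enters these medians as 0. The 3 in both were Acvr1b, an activin type I receptor, Acvr2b, an activin type II receptor, and Rgmb, a BMP co-receptor. For Acvr1b the in vitro PSMPs libraries held 6.57 and 12.4 CPM and those of SAHA 12 and 9.44 CPM, and all other libraries lay between 63.5 and 272 CPM. In vitro PSMPs fell below con-in vitro (log2 -4.25 ± 0.64, adjusted p = 0.0027), SAHA fell below con (log2 -3.57 ± 0.62, adjusted p = 0.0088), and PSMPs & OE-Hdac3 lay above in vitro PSMPs (log2 2.81 ± 0.60, adjusted p = 0.033). Acvr2b, at 802 and 942 CPM in con-in vitro, was at most 59.7 CPM in any other library. Rgmb, at 1355 and 574 CPM in con-in vitro, was at most 96.8 CPM elsewhere.

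The receptors that BMP15 and GDF9 use were present in every library. Bmpr2, the type II receptor of both, ranged from 28.1 to 359 CPM, Bmpr1b from 78.6 to 219.5 CPM and Tgfbr1 from 8.48 to 49.4 CPM. Bmpr2 passed only in con-in vitro against con (log2 2.05 ± 0.49, adjusted p = 0.018), and Tgfbr1 only in SAHA against con (log2 -1.95 ± 0.61, adjusted p = 0.043). Bmpr1b passed in none of the 7.

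Of 8 Smad genes 7 could be tested. Smad3, which carries signals of the GDF9 and activin kind, was highest in con at 794 and 751 CPM, followed by in vivo PSMPs at 539 CPM and PSMPs & OE-Hdac3 at 199.8 and 196 CPM. Con-in vitro held 93.5 and 183 CPM, in vitro PSMPs 35.9 and 51.4 CPM and SAHA 37.2 and 27.4 CPM. In vitro PSMPs and SAHA overlapped and lay below every other library. Smad3 fell with SAHA, relative to con (log2 -4.58 ± 0.44, adjusted p = 0.0018) and relative to con-in vitro (log2 -2.10 ± 0.40, adjusted p = 0.0074). Con-in vitro lay below con (log2 -2.48 ± 0.40, adjusted p = 0.0032), and in vitro PSMPs fell below con-in vitro (log2 -1.66 ± 0.39, adjusted p = 0.022). It was higher in PSMPs & OE-Hdac3 than in in vitro PSMPs (log2 2.18 ± 0.40, adjusted p = 0.020). Smad4, the partner shared by both branches, was higher in con-in vitro than in con (log2 2.06 ± 0.64, adjusted p = 0.043). The BMP-branch genes Smad1, Smad5 and Smad9 passed in none.

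Of 18 antagonist and inhibitor genes 12 could be tested. Ski, a repressor that binds Smad proteins, was at 61.6 and 62 CPM with PSMPs in vitro and at 40.8 and 41.1 CPM with SAHA, below every other library (98.7 to 443 CPM). It fell with exposure in culture (log2 -2.46 ± 0.40, adjusted p = 0.0039) and higher in PSMPs & OE-Hdac3 than in in vitro PSMPs (log2 2.07 ± 0.39, adjusted p = 0.022). Smurf2, a ubiquitin ligase for receptors and Smad proteins, fell from 417 ± 139 CPM in con to 60.4 ± 21.6 CPM in SAHA (log2 -2.79 ± 0.47, adjusted p = 0.0083). In SAHA against con, these were the 2 that fell, 0 rose and 10 did not pass, a smaller share than the 26.9% of all genes. Against con-in vitro 3 of the 12 fell and 0 rose both in in vitro PSMPs (15.3% of all genes passed) and in SAHA (19.8%), and 3 rose and 0 fell in con-in vitro against con (25.1%). No median is given, since 5 of the 12 were at 0 in all libraries of at least 1 group.

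**Figure D4:**
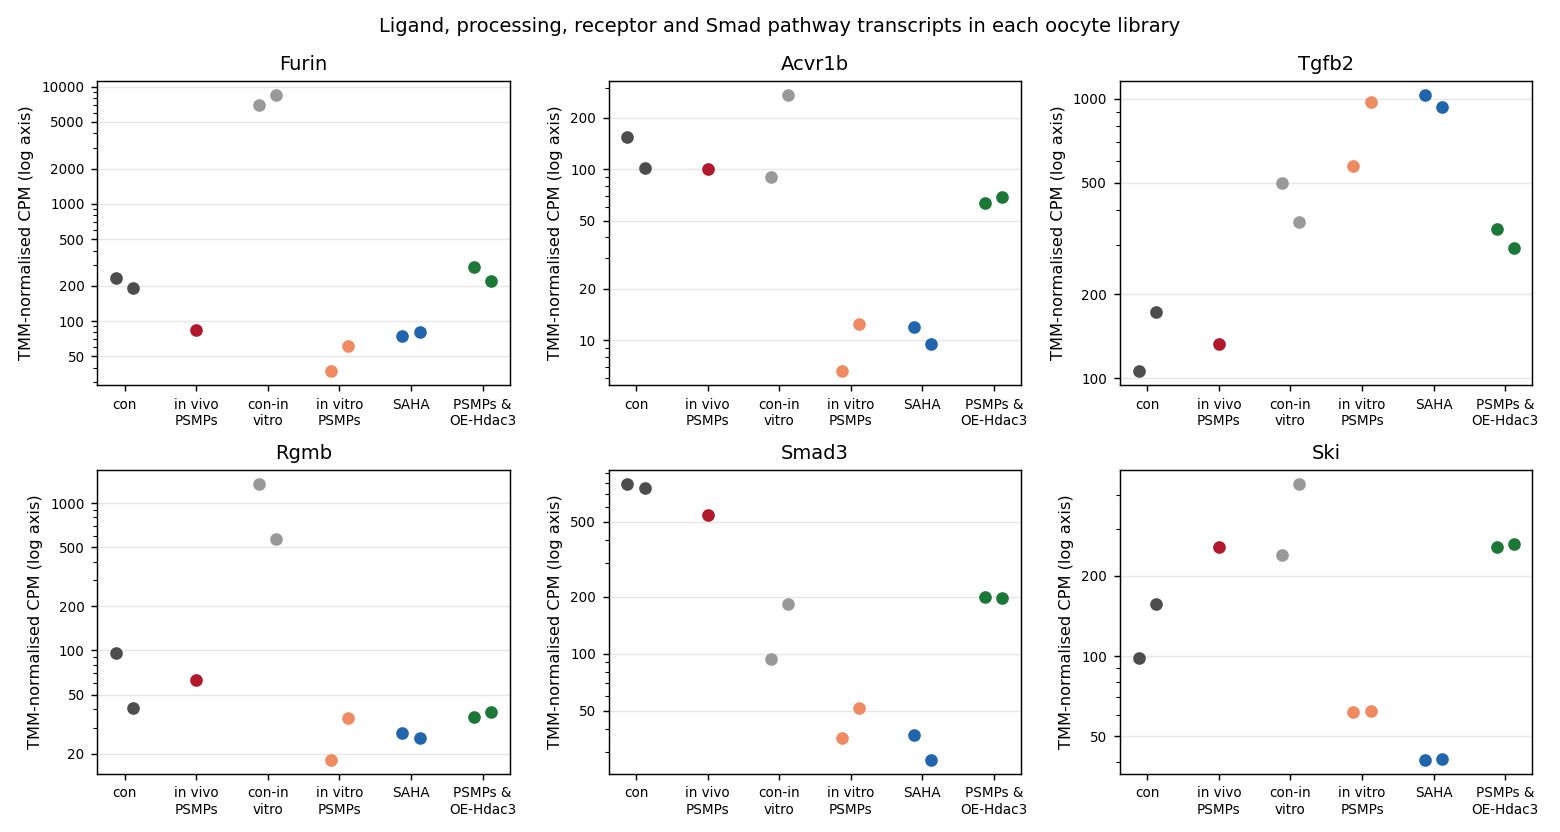
Levels of Furin, Acvr1b, Tgfb2, Rgmb, Smad3 and Ski in TMM-normalised CPM on log axes, with 1 point per library, for the 6 groups on the horizontal axis. Furin and Rgmb are highest in con-in vitro, while Acvr1b, Smad3 and Ski are lowest in in vitro PSMPs and SAHA.

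Among 29 other ligand genes 9 passed the filter and could be tested, and 8 of the 29 had no count in any library. In SAHA against con 4 of the 9 rose and 0 fell (26.9% of all genes passed). Against con-in vitro 0 rose and 1 fell both in in vitro PSMPs (15.3%) and in SAHA (19.8%). Con-in vitro against con had 2 higher and 0 lower (25.1%). One each was higher and 0 lower in in vivo PSMPs against con (4.88%) and PSMPs & OE-Hdac3 against in vitro PSMPs (4.83%). Tgfb2 stood at 1033 and 934 CPM in SAHA and 575 and 973 CPM in in vitro PSMPs, against 106 and 173 CPM in con. Relative to con it rose with SAHA (log2 2.82 ± 0.40, adjusted p = 0.0048), and con-in vitro lay above con (log2 1.62 ± 0.38, adjusted p = 0.017). Gdf11 stood at 70.0 and 104 CPM in con-in vitro and at 0 in con, at least 1980.3-fold higher, and was at most 8.65 CPM in any other library. The inhibin subunit gene Inha, a granulosa cell product, stood at 59.4 CPM in in vivo PSMPs and at most at 1.53 CPM elsewhere. The cumulus genes that GDF9 induces, Has2, Ptgs2, Ptx3, Tnfaip6 and Grem1, summed to at most 3.56 CPM in any library.

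Of 7 genes for transcription factors of oocytes, 6 could be tested. Nobox, a homeodomain factor needed for expression of Gdf9 and Bmp15, ranged from 65.2 CPM in con replicate 1 to 603 CPM in PSMPs & OE-Hdac3 and passed in none of the 7 comparisons. Lhx8 was the only one to pass, lower in SAHA than in con-in vitro at 55.4 ± 37.3 against 305 ± 99.1 CPM (log2 -2.46 ± 0.66, adjusted p = 0.032). Other oocyte transcripts moved as well in these comparisons. In in vitro PSMPs against con-in vitro 5 of the 12 oocyte markers rose and 0 fell (median log2 2.04, against 0.71 over all genes, of which 15.3% passed). In SAHA 7 rose and 1 fell against con-in vitro (19.8% of all genes passed; median 2.67, against 0.66 over all genes). Against con 4 rose and 1 fell in SAHA (26.9%), with a median of 0.36, below the 0.59 of all genes. In PSMPs & OE-Hdac3 against in vitro PSMPs 1 rose and 2 fell (4.83%; median -1.42, against 0.09 over all genes). In con-in vitro against con 0 rose and 4 fell (25.1%; median -0.42, against 0 over all genes). None passed in in vivo PSMPs against con or in PSMPs & OE-Hdac3 against in vivo PSMPs by edgeR.

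The genes closest in pattern were found by the root mean square difference of log2(CPM + 1), each gene centred on its mean over the 11 libraries. The search covered 7162 genes with at least 10 CPM on average and left out gene models with Gm or Rik names. Closest to Gdf9 were Zfp541 (0.312), Cdca8 (0.317), Med22 (0.344), Zfyve21 (0.345) and Apip (0.378), where the spread of Gdf9 itself was 0.988. Closest to Bmp15 were Nlrp4g (0.278), Cops2 (0.286), Dab2 (0.340), Dnm1l (0.342) and Epb41l5 (0.342), with an own spread of 0.951. Bmp6 was followed by Arf3 (0.433), Stk11 (0.477), Kpna6 (0.496), Jade2 (0.499) and Phf12 (0.499), against a spread of 1.93. Bmp5, whose own spread was the largest of the 4 at 2.65, had no gene as close in absolute terms. Its nearest were Sumo2 (0.878), Blvra (0.980), Sycp3 (1.00), Ncoa4 (1.01) and Ldhb (1.04). Across the 11 libraries, which share groups and differ in depth, Bmp5 and Bmp6 had a Pearson correlation of -0.951 (Spearman -0.773), and Gdf9 and Bmp15 one of -0.398 (Spearman -0.5).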

How the data were processed

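RNA counts per gene were measured in 12 columns of mouse oocytes, and the values used are the raw counts deposited by the authors for 55401 genes. Per the submitters' processing notes the build was mm10 and the tools included HISAT2, fastp 0.12.4 and featureCounts, with roles and parameters not stated. CUT&Tag libraries of the series were not analysed here.

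Groups came from the sample titles. The in vivo PSMPs columns were merged as a rounded mean. Low genes were removed with filterByExpr (minimum count 10) over 12 columns, in which the merged in vivo PSMPs sample stood for 2. This left 16746. Counts were scaled by TMM factors (0.542 to 1.57), and 1 coefficient per group was fitted to the 11 libraries with robust quasi-likelihood dispersion (5 residual degrees of freedom, biological coefficient of variation 71.8%). Software was edgeR 4.0.16 and, as an alternative, DESeq2 1.42.0, run in R 4.3.3. The code was run on simulated counts with known changes set in in vitro PSMPs. These counts lacked the difference in composition of con-in vitro, so the run cannot speak to it. A count of 0 was given a floor of 3 counts over the group, 3 counts being 0.0773 to 0.89 CPM per library, which covers counting error only.

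The members, lists and comparisons were chosen with earlier results of these data known. Named genes were all members, up to 4 genes per list that passed in a comparison (smallest p), otherwise the most abundant, and the 5 nearest patterns per member. Bmpr1b, Bmpr2, Tgfbr1, Inha, Smad1, Smad5, Smad9, Pcsk5, Pcsk6, Pcsk7, Amhr2 and the neighbouring genes were added after their values were seen. Alternatives were no filter, a filter at 50 counts, the size factors of DESeq2, its Wald test, only the groups compared, a replicate block, and leaving out each library. Library totals and in vivo PSMPs as 2 libraries were added after the data were seen.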

Additional observations from a re-analysis of the deposited data

Results flagged for a closer look

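The difference between exposed and control oocytes was not the same in the animal as in culture for 3 of the 4 growth factors, by edgeR's test of the difference between both effects (in vivo PSMPs against con minus in vitro PSMPs against con-in vitro). It was log2 -2.61 ± 0.55 for Gdf9 (adjusted p = 0.019), -7.16 ± 1.31 for Bmp5 (adjusted p = 0.012) and 4.23 ± 0.66 for Bmp6 (adjusted p = 0.0065). Bmp15 did not pass (-0.66 ± 0.48, adjusted p = 0.43), and 11.3% of all genes did. The controls differ as well: con-in vitro held 8.13-fold less Gdf9 than con, and in vivo PSMPs is 1 sample. With only these 4 groups fitted the calls were lost, at -2.98 for Gdf9 (adjusted p = 0.071), -7.49 for Bmp5 (adjusted p = 0.1) and 3.87 for Bmp6 (adjusted p = 0.066). Leaving out each library in turn gave -3.01 to -2.29 for Gdf9, -9.63 to -6.27 for Bmp5 and 3.80 to 4.73 for Bmp6. The -9.63 of Bmp5 was found without con-in vitro replicate 1, and the -6.27 without con-in vitro replicate 2. Without in vitro PSMPs replicate 2 those of Gdf9 (-2.39, adjusted p = 0.068) and Bmp5 (-6.80, adjusted p = 0.052) were lost.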

How the results depend on the processing

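The calls of Gdf9, Bmp5 and Bmp6 in in vitro PSMPs against con-in vitro, of Bmp5 and Bmp6 in SAHA against con-in vitro, of Bmp6 in SAHA against con and of Gdf9 in con-in vitro against con kept their direction and passed in every alternative run. Every other call kept its direction and was lost in at least 1 alternative run. In some of those runs far fewer of all genes passed as well. Each group has 2 libraries or 1, and no cause of these losses or of the changes below was tested. A library left out leaves its group with 1 sample, assumed to vary like the other groups. Leaving out each library in turn gave, for in vivo PSMPs against con, log2 -0.88 to -0.66 for Gdf9, -0.15 to 0.05 for Bmp15, -1.23 to -0.49 for Bmp5 and -0.31 to 0.70 for Bmp6, and 2683 to 4203 genes called. For exposure in culture against con-in vitro these were log2 1.52 to 2.24 for Gdf9, 0.31 to 0.86 for Bmp15, 5.37 to 8.73 for Bmp5 and -4.35 to -3.91 for Bmp6, and 1039 to 2644 genes called. For SAHA against con-in vitro they were log2 1.11 to 1.82 for Gdf9, 0.74 to 1.03 for Bmp15, 5.89 to 9.24 for Bmp5 and -4.81 to -4.18 for Bmp6, and 1072 to 3176 genes called. For SAHA against con they were log2 -1.91 to -1.50 for Gdf9, 1.60 to 1.80 for Bmp15, 3.69 to 4.61 for Bmp5 and -4.65 to -3.83 for Bmp6, and 204 to 6642 genes called. For PSMPs & OE-Hdac3 against in vitro PSMPs they were log2 -0.13 to 0.43 for Gdf9, -2.64 to -2.06 for Bmp15, -5.59 to -4.95 for Bmp5 and 3.51 to 3.95 for Bmp6, and 0 to 180 genes called. For PSMPs & OE-Hdac3 against in vivo PSMPs they were log2 -0.48 to -0.01 for Gdf9, -1.08 to -0.71 for Bmp15, -0.90 to -0.55 for Bmp5 and -0.33 to -0.25 for Bmp6, and 0 to 0 genes called. For con-in vitro against con they were log2 -3.44 to -2.72 for Gdf9, 0.67 to 0.96 for Bmp15, -5.04 to -1.69 for Bmp5 and -0.19 to 0.65 for Bmp6, and 3608 to 6571 genes called. Signs that turned were all of uncalled differences: Bmp6 without con replicate 1 in in vivo PSMPs against con (-0.31) and con-in vitro against con (-0.19), Bmp15 without con replicate 2 in the former (0.05), and Gdf9 without PSMPs & OE-Hdac3 replicate 2 against in vitro PSMPs (-0.13).

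With library totals, signs turned for Bmp15 in in vivo PSMPs against con (0.27), Gdf9 (0.09) and Bmp6 (0.03) in PSMPs & OE-Hdac3 against in vivo PSMPs, and Bmp15 (-0.04) and Bmp6 (-0.66) in con-in vitro against con, none of them called. Bmp15 then passed in in vitro PSMPs (1.57) and SAHA (1.58) against con-in vitro. The median of all genes moved from 0.71 to 1.70, 0.66 to 1.37, 0.09 to 0.60 and 0 to -0.49 in in vitro PSMPs and SAHA against con-in vitro, PSMPs & OE-Hdac3 against in vitro PSMPs and con-in vitro against con. The share of calls that were higher moved from 55.8% to 82.1%, 58.9% to 77.7%, 38.2% to 64.2% and 58.3% to 38.2%. Of 24 group levels of the 4 growth factors, 14 moved by more than their spread or had none, and 10 did not. For exposure in culture the count of calls went from 2569 to 4229.

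DESeq2 called 2725, 4632, 5350, 2590 and 870 genes in in vivo PSMPs against con, in vitro PSMPs and SAHA against con-in vitro, and PSMPs & OE-Hdac3 against in vitro and in vivo PSMPs, where edgeR called 818, 2569, 3313, 808 and 0. Bmp15 passed with it in SAHA against con-in vitro (0.87) and con-in vitro against con (0.95). With in vivo PSMPs as 2 libraries Bmp15 passed in the same comparisons (0.87 and 0.84), and 4180, 3917, 1489 and 1355 genes were called in in vivo PSMPs against con, in vitro PSMPs against con-in vitro, and PSMPs & OE-Hdac3 against in vitro and in vivo PSMPs. Without a filter 1377 genes were called in in vivo PSMPs against con and 118 in PSMPs & OE-Hdac3 against in vivo PSMPs, and with a filter at 50 counts 3003 in SAHA against con (4510 otherwise). With only the groups compared fitted, edgeR called 0 (438 at an unadjusted p under 0.05; DESeq2 was run on all groups only, with the 2725 above), 1450, 5491, 7266 and 836 genes in in vivo PSMPs against con, SAHA against con, PSMPs & OE-Hdac3 against in vitro and in vivo PSMPs, and con-in vitro against con (4205 otherwise). In that fit Gdf9 in SAHA against con (-1.69, adjusted p = 0.05) and Bmp5 in con-in vitro against con (-2.67) were lost, and Bmp15 in PSMPs & OE-Hdac3 against in vivo PSMPs passed (-0.97). Where in vivo PSMPs is compared, such a fit takes its spread from the other group alone.

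Samples with the same replicate number did not deviate together (r from -0.224 to 0.0389 over 10 pairs of groups). This does not show whether they shared a batch. With the replicate number as a block 4 genes were called in in vivo PSMPs against con and 529 in PSMPs & OE-Hdac3 against in vitro PSMPs, and Bmp5 in con-in vitro against con did not pass (-2.61, adjusted p = 0.057). The block changed no other call of the 4 growth factors.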
